A study of Mus musculus with 15 samples.

Results

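The milk protein and secretion genes described here are 10 mouse genes: the caseins Csn1s1, Csn1s2a, Csn1s2b, Csn2 and Csn3, the whey genes Wap and Lalba, and Glycam1, Btn1a1 and Xdh. They were taken by name: all 22 non-control probes of the array files that carry one of these names, out of 56605 probes and 37008 distinct gene names. Of the 22 probes, 17 read well above background on 7 or more of the 15 arrays and were kept, and all 10 genes had at least 1 kept probe and were among the 22342 genes tested. A gene is represented by its kept probe with the highest mean signal, and its other probes are described beside it.

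Total RNA came from mammary tumours of MMTV-PyMT mice, a transgenic line in which the MMTV promoter drives the polyoma middle T oncogene in mammary epithelium. There were 8 tumours on the B6 background and 7 on the Wsh background, all at 20 weeks of age, and both groups carry the transgene. Wsh is the usual name of the Kit W-sh allele, an inversion next to Kit on chromosome 5 whose carriers lack mast cells as adults, and the series title names mast cells and breast cancer cells as its subject. The labels name neither pregnancy nor nursing for any mouse, and they do not say whether tumours shared a mouse, and a p-value then covers just the spread of these arrays. Each tumour gave 1 array, and the arrays lay on 2 slides, slide 1 with B6 replicates 1 to 4 and Wsh replicates 1 to 4, and slide 2 with the other 4 B6 and 3 Wsh arrays.

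Milk genes are switched on in the secretory alveolar cells of the mammary gland, mainly in late pregnancy and in nursing. Prolactin binds its receptor Prlr, the kinase Jak2 phosphorylates Stat5a and Stat5b, and these factors act with Elf5 and the glucocorticoid receptor at milk gene promoters. The caseins form the micelles that carry calcium and phosphate, Lalba turns the galactosyltransferase B4galt1 towards lactose synthesis, and Btn1a1 and Xdh act together in wrapping the milk fat globule in membrane. Glycam1 is a mucin-like milk protein and is also made by the high endothelial venules of lymph nodes.

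The sequences that bear on the later results are the 250 bases before the start site of 4 members whose levels varied most between tumours, and short stretches of probes whose sequence matters for reading their values. A RefSeq promoter table of build GRCm38.p6 matched 6 of the 10 members by symbol (Csn1s1, Csn1s2a, Csn2, Wap, Lalba and Glycam1). The core Stat5 motif TTCNNNGAA, which reads the same on both strands, is in capitals. The 4 windows lie at chr5:87665958-87666207 (plus strand) for Csn1s1, chr5:87699426-87699675 (minus strand) for Csn2, chr5:87774200-87774449 (plus strand) for Csn1s2a and chr15:103565082-103565331 (minus strand) for Glycam1.
Csn1s1: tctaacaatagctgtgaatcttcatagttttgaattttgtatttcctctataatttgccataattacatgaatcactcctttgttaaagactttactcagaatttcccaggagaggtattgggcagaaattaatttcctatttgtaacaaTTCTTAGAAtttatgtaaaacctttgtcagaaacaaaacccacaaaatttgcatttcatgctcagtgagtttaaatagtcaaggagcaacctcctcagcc
Csn2: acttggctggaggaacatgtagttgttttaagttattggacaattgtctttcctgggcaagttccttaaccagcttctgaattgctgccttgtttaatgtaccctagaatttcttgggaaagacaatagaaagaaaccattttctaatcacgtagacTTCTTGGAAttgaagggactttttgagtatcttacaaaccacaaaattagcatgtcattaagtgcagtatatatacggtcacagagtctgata
Csn1s2a: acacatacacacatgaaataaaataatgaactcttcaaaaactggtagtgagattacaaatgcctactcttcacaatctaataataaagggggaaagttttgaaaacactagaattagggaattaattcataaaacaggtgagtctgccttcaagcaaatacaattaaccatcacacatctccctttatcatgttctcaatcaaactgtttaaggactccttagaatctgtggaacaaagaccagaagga
Glycam1: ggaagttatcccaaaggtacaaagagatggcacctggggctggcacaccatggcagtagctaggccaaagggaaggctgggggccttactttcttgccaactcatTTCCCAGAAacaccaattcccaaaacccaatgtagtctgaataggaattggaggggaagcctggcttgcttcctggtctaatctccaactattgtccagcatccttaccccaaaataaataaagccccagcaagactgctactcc

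The motif stood once in 3 of the 6 windows, as TTCTTAGAA starting 100 bases before the start site of Csn1s1, as TTCTTGGAA at 93 bases before that of Csn2 and as TTCCCAGAA at 145 bases before that of Glycam1. No match lay in the windows of Csn1s2a, Wap and Lalba, which says only that these letters are not in those 250 bases. Of all 32851 promoters of the table, 7.02% held at least 1 match in the same 250 bases. Motif matches describe sequence and are not sites shown to be bound.

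Each value is the log2 of a probe's signal over its array's 75th percentile. A difference is the Wsh mean minus the B6 mean on that scale, given with its standard error (SE) from limma. Because each probe binds with its own strength, values of different genes are not set against each other as levels. The array 75th percentile ran from 3328 to 6406 signal units, the share of spots read well above background from 55.7% to 73.4%, and no pair of arrays was identical. Kit, which the W-sh inversion lies beside, was read first as a check of the labels. It lay at 2.03 or above on every B6 array and at 1.40 or below on every Wsh array, so the groups did not overlap, and the difference was -2.65 (SE 0.28, limma adjusted p = 0.000208). The mean of 6 mast cell markers lay between -2.74 and 0.51 on the B6 arrays and between -4.81 and -4.20 on the Wsh arrays. It is no second check, because it includes Kit. Mcpt4, Cma1 and Cpa3, also in it, were well above background on just 8, 8 and 7 of the 15 arrays. The others, Tpsb2 and Fcer1a, differed by -0.91 (SE 0.44) and -0.26 (SE 0.24), with limma adjusted p of 0.501 and 0.769. Ms4a2, well above background on 2 arrays, was not tested. The 8 luminal epithelial markers (Krt8, Krt18, Epcam and the like) had a mean log2 value of 3.34 to 4.27 on every array, so the labelled tissue held its defining transcripts throughout. Some arrays stood apart in other lists: 5 arrays (B6 replicate 4 and Wsh replicates 1, 3, 4 and 5) had a mean of 6 skeletal muscle markers of 0.77 to 4.46, against -4.85 to -3.37 on the other 10. In bulk tissue, fewer cells of a type and less RNA per cell cannot be told apart.

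No milk gene was separated between the groups by the test. None of the 10 genes passed adjusted p 0.05 between Wsh and B6 in the limma fit (0 of 10), where 0.336% of all genes tested did, and none reached an unadjusted p under 0.05 (0 of 10), where 10.4% of all genes did. The members' differences ran from -0.38 for Lalba to 2.65 for Csn2, with 7 above and 3 below 0 and a median of 0.07, beside -0.01 over all genes. In all 10 genes the 2 groups overlapped, where 0.358% of all genes did not overlap. The intervals are wide for 4 genes: the 95% interval of the Csn2 difference ran from -1.27 to 6.56 and that of Glycam1 from -3.07 to 3.99. They are narrow for others by the representing probe, such as Csn3 (-0.22 to 0.28) and Btn1a1 (-0.26 to 0.39). The other kept Btn1a1 probes, each fitted on its own, had wider unadjusted intervals, of 0.01 to 1.40 and -0.34 to 1.09. Several members varied widely between tumours: the SD over the 15 arrays was 3.95 for Csn2, 3.35 for Glycam1, 2.31 for Csn1s1 and 2.22 for Csn1s2a, beside a median of 0.30 over all genes. These 4 lie between the 99.47th and 99.98th percentiles of all genes tested by SD, whereas Csn3, by its representing probe, lies at the 25.8th.

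**Figure D1:**
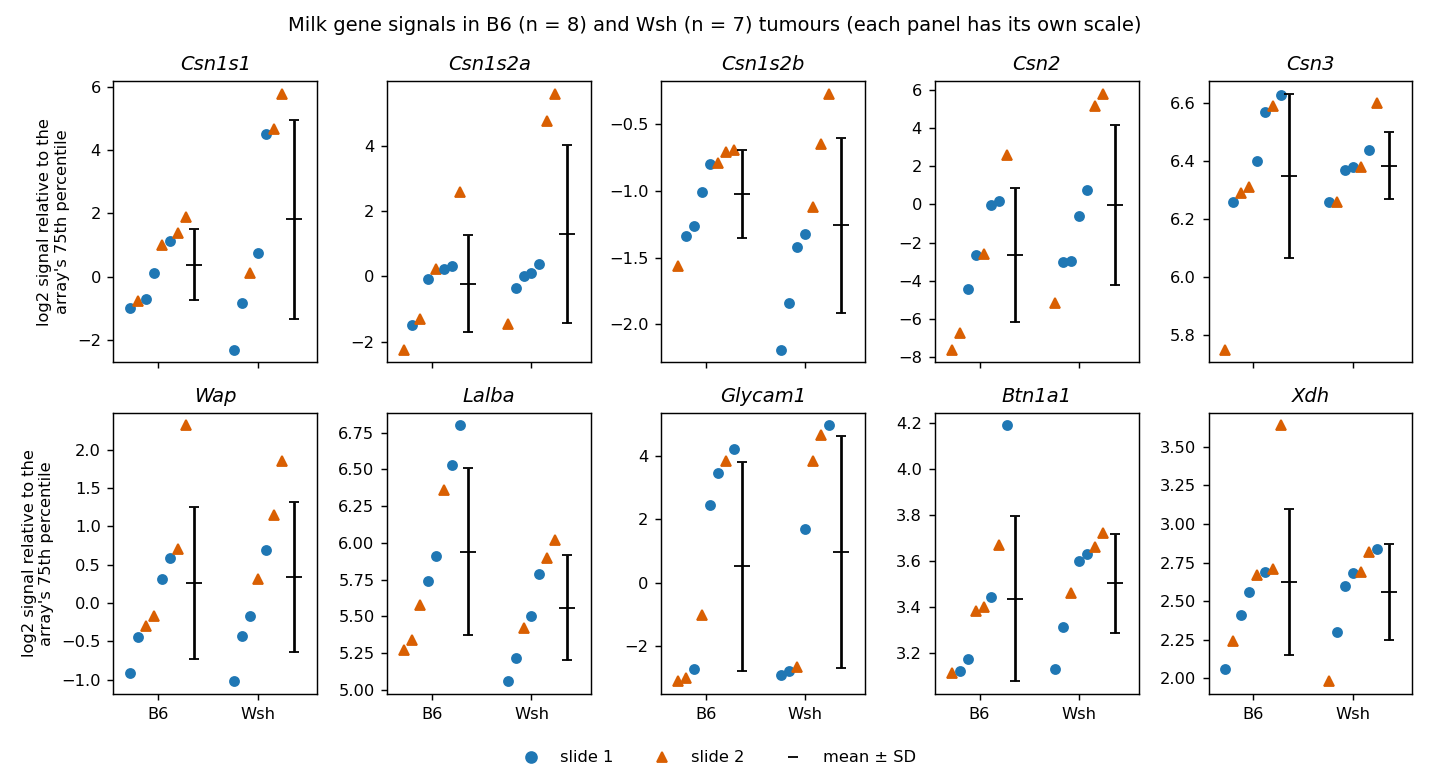
Log2 signal relative to the array's 75th percentile for the 10 genes in 8 B6 and 7 Wsh tumours, with circles for slide 1, triangles for slide 2 and a bar for the group mean ± SD. The groups overlap in every panel, and 2 Wsh arrays of slide 2 lie above 4.6 in Csn2, Csn1s1 and Csn1s2a.

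**Figure D2:**
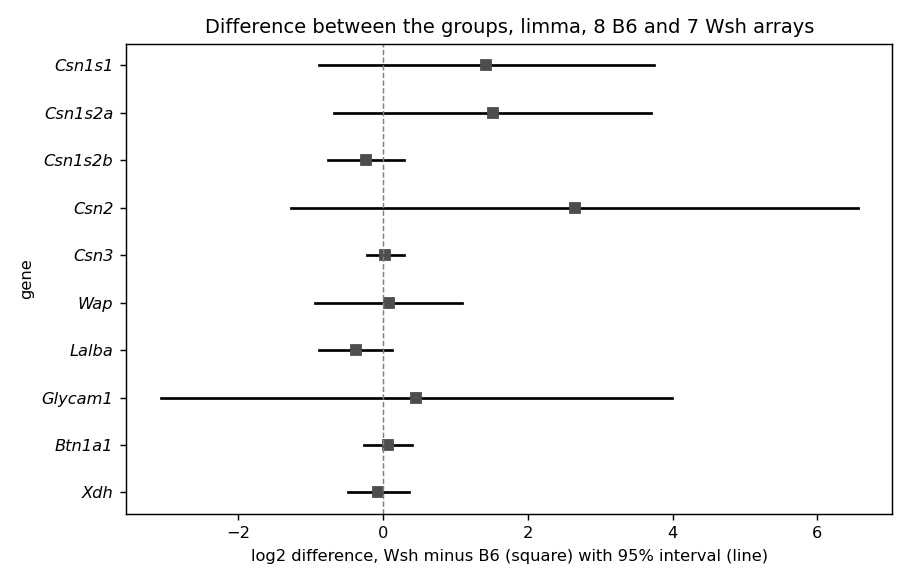
Log2 difference Wsh minus B6 (square) with its 95% interval (line) from the limma fit of 8 B6 and 7 Wsh arrays. Each gene is shown by its representing probe. Every interval shown includes 0, and those of Csn2 and Glycam1 are the widest.

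Among the calcium-sensitive caseins, Csn2 (beta-casein, chr5:88121767-88121826 in mm9) spanned the widest range. In B6 it ran from -7.60 over a median of -2.63 to 2.59, and in Wsh from -5.18 over -0.63 to 5.78. Its probe was well above background on 6 of 8 B6 and 6 of 7 Wsh arrays, and B6 replicates 5 and 8 and Wsh replicate 5 were not. The 2 highest values were those of Wsh replicates 6 and 7 (5.78 and 5.13), followed by B6 replicate 7 (2.59), all on slide 2, while the lowest 3 were on slide 2 as well. The group difference was 2.65 (SE 1.84, limma adjusted p = 0.676). Without Wsh replicates 6 and 7, chosen for removal after seeing the data, it was 0.45 (SE 1.63, adjusted p = 0.970).

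Csn1s2a, an alpha-S2-type casein (chr5:88217726-88217785), was well above background on all 15 arrays. It ran from -2.24 over a median of 0.07 to 2.58 in B6, and from -1.45 over 0.12 to 5.60 in Wsh. The same arrays led as for Csn2: Wsh replicates 6 and 7 stood at 5.60 and 4.77 and B6 replicate 7 at 2.58, while no other array exceeded 0.39. The difference was 1.52 (SE 1.03, adjusted p = 0.664 in limma), and without Wsh replicates 6 and 7 it was -0.04 (SE 0.66, adjusted p = 0.993).

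Csn1s1, the alpha-S1 casein (chr5:88111332-88111391), differed in which arrays were high. B6 values ran from -0.99 over a median of 0.56 to 1.88, and Wsh values from -2.29 over 0.76 to 5.77. Wsh replicates 2, 6 and 7 stood at 4.49, 5.77 and 4.67, and the other 4 Wsh arrays between -2.29 and 0.76, within or below the B6 range. A second Csn1s1 probe (chr5:88103550-88103609) was well above background on those same 3 arrays (-4.56, -3.06 and -3.11) and on no other. The difference was 1.43 (SE 1.09, limma adjusted p = 0.712), and 0.07 (SE 0.92, adjusted p = 0.992) without Wsh replicates 6 and 7. The 4 Wsh arrays with lower Csn1s1 are the 4 Wsh arrays with skeletal muscle markers, and B6 replicate 4, the other array with them, was lowest in B6 at -0.99. Without the 5 arrays with muscle markers, a choice made after seeing the data that leaves 3 Wsh and 7 B6 arrays, the Csn1s1 difference was 4.39 (SE 0.59, adjusted p = 0.0317) and the groups did not overlap. Since that choice keeps just the 3 Wsh arrays already seen to be high in Csn1s1, this value describes those arrays and is no independent test. In that setting Csn1s1 was the only member past the threshold, with Csn2 at 6.55 (SE 2.15, adjusted p = 0.415) and Csn1s2a at 3.64 (SE 1.28, adjusted p = 0.459). The part of muscle content in the Csn1s1 values was not tested.

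Csn1s2b, another alpha-S2-type casein, gave different readings from different probes. The probe that represents it, at chr5:88253366-88253425, was well above background on all 15 arrays and stayed between -2.19 and -0.27. It ran from -1.56 over a median of -0.91 to -0.69 in B6 and from -2.19 over -1.32 to -0.27 in Wsh, with Wsh replicates 6 and 7 highest (-0.27 and -0.65). Its difference was -0.24 (SE 0.25, adjusted p = 0.811 in limma). The other 3 probes lie before it on the plus strand, between chr5:88238924 and chr5:88247990. One of them was well above background on B6 replicate 7 and Wsh replicates 6 and 7 (-3.90, -3.08 and -4.17), another on Wsh replicate 6 (-4.09), and the other on 0 arrays. The 3 arrays on which these upstream probes were detected are the 3 with the highest Csn2 and Csn1s2a.

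**Figure D3:**
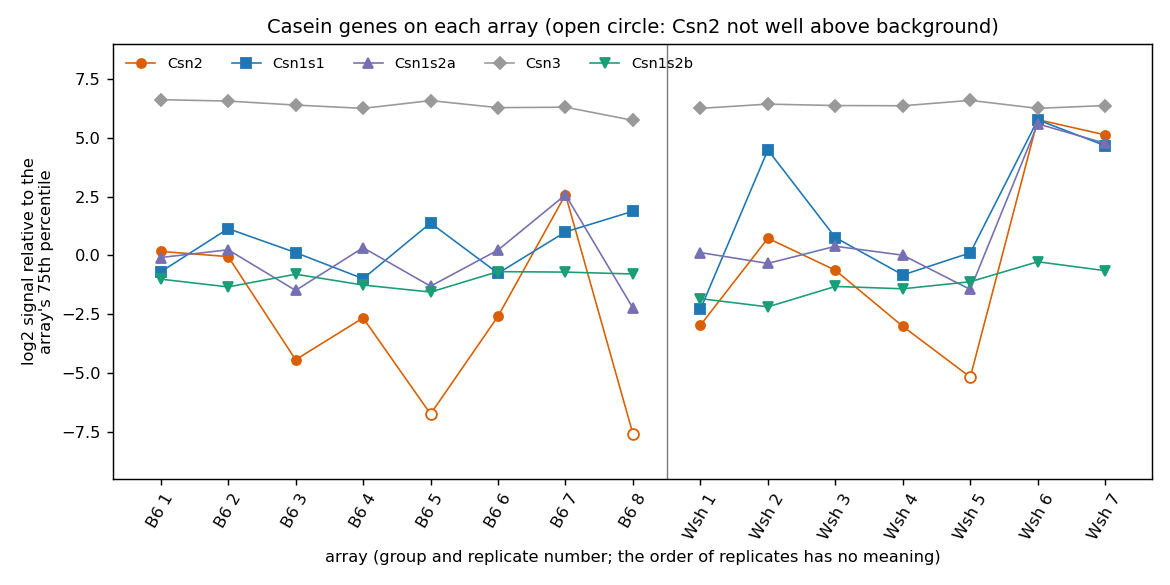
Log2 signal relative to the array's 75th percentile (vertical axis) of the 5 casein genes on each B6 and Wsh array, with open circles where Csn2 was not well above background. Csn2, Csn1s1 and Csn1s2a are all high on Wsh 6 and Wsh 7, and Csn1s1 is high without Csn1s2a on Wsh 2. Each gene is shown by its representing probe, and that of Csn3 keeps to a narrow band.

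Csn3, the kappa-casein that caps the micelle surface, varied least of the members when each is read by its representing probe. That of Csn3 (chr5:88361449-88361508) ran from 5.75 over a median of 6.36 to 6.63 in B6 and from 6.26 over 6.38 to 6.60 in Wsh. B6 replicate 8 was lowest at 5.75, and the other 14 arrays lay between 6.26 and 6.63. The difference was 0.03 (SE 0.12, adjusted p = 0.961 in limma). This probe is among the brightest on the arrays, at the 99.6th percentile of the tested genes by mean signal. The 47 genes that followed it with a Pearson r above 0.9 over the 15 arrays had a median brightness percentile of 99.6, the 3 most alike being COX2 (r = 0.965), Med16 (0.956) and Hk1 (0.954). The other 2 Csn3 probes followed it weakly over the 15 arrays (r = 0.29 and 0.05) and varied more, from 4.31 to 6.04 and from 1.80 to 3.66. Their differences were -0.15 (SE 0.21, adjusted p = 0.838) and -0.31 (SE 0.27, adjusted p = 0.717) with every kept probe tested on its own, a test in which 0.332% of 34346 probes passed and none of the 17 kept member probes did.

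Csn2 and Csn1s2a moved together across tumours. Of the 9 relations of Csn2 with the other members, that with Csn1s2a had Pearson r = 0.912 (permutation p = 2e-05, Benjamini-Hochberg adjusted over the 9 relations 0.00018) and Spearman rho = 0.793 (permutation p = 0.00074, adjusted 0.00666) over 15 arrays. Without the 2 arrays farthest from the Csn2 median, Wsh replicates 6 and 7, r was 0.844. Within B6 (n = 8) r was 0.902 and within Wsh (n = 7) it was 0.928. The relation was strong on slide 2 (r = 0.989, n = 7) and was not past the threshold on slide 1 (r = 0.436, exact permutation p = 0.297, n = 8), where Csn1s2a had an SD of 0.61, against 3.17 on slide 2. Csn2 and Csn1s1 gave r = 0.580 (permutation p = 0.0233, adjusted 0.0700) and rho = 0.386 (adjusted 0.367). Without Wsh replicates 6 and 7, r was 0.125, so the pooled value rests on them. It was 0.878 within Wsh and -0.327 within B6. On slide 1, which holds neither of these arrays, r was 0.622 (exact permutation p = 0.0809, n = 8), and on slide 2 it was 0.680 (exact permutation p = 0.109, n = 7). For Csn1s2b, Csn3, Wap, Lalba, Btn1a1 and Xdh, each by its representing probe, r with Csn2 lay between -0.07 and 0.32 with adjusted permutation p of 0.557 or more. Their other probes were not set against Csn2 in this way. An upstream Csn1s2b probe was well above background only on B6 replicate 7 and Wsh replicates 6 and 7, the arrays with the highest Csn2. The r of the representing probe therefore does not show that Csn1s2b is unrelated to Csn2. Glycam1, the other of the 9 past the threshold in Pearson r, is given with its own arrays.

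The genes outside the members whose pattern was most like Csn2 over the 15 arrays were Gdap1l1 (r = 0.894), 2810459M11Rik (0.872), Duox1 (0.845), Agap1 (0.844) and Fam53b (0.827). Gdap1l1 was also among the 3 most like Csn1s2a (r = 0.849), with Gldc (0.889), the glycine decarboxylase, and Slc25a18 (0.844). Csn1s1 was most like Gm13580 (0.932), Fam170b (0.888) and 4933429K18Rik (0.886). The gene most like Csn1s2b was Slc30a4 (r = 0.890), a zinc transporter that supplies zinc to milk, ahead of Gemin6 and Epb41. These are the highest of 22342 values each and are given as a description without a test.

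The 4 genes of the prolactin route that were set beside Csn2 after seeing the data gave no relation past the threshold. Pearson r over 15 arrays was 0.04 for Prlr, 0.14 for Stat5a, 0.09 for Stat5b and 0.04 for Elf5, with adjusted permutation p over these 4 of 0.898 each. The signs of these values turned under scaling to the array median, where r lay between -0.13 and -0.00210.

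Wap, the whey acidic protein, is carried by 2 kept probes on chromosome 11 that share 43 of their 60 bases, in capitals, which is why their values are not independent.
Wap probe at chr11:6536714-6536773, mm9, minus strand: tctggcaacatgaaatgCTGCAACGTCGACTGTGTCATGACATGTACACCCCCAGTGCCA
Wap probe spanning chr11:6535617-6536756, mm9, minus strand: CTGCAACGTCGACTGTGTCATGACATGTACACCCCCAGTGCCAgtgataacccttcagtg
Both were well above background on all 15 arrays and followed each other with r = 0.998. By the second of these, which represents the gene, Wap ran from -0.92 over a median of 0.08 to 2.32 in B6 and from -1.02 over 0.32 to 1.86 in Wsh. B6 replicate 8 was highest at 2.32, then Wsh replicates 6 and 7 at 1.86 and 1.15. B6 replicate 8 is also the array with the lowest Csn2 and the lowest Csn1s2a. The difference was 0.08 (SE 0.48, adjusted p = 0.974 in limma), and it was -0.39 without Wsh replicates 6 and 7. Terc (r = 0.886), Gm32755 (0.884) and Pde12 (0.777) were most like it.

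Lalba, alpha-lactalbumin, the regulatory subunit of lactose synthase (chr15:98310831-98310890), was well above background on all arrays. It ran from 5.27 over a median of 5.82 to 6.80 in B6 and from 5.06 over 5.50 to 6.02 in Wsh. The B6 values reached higher, with B6 replicates 3, 1 and 6 at 6.80, 6.53 and 6.36, above every Wsh value. The difference was -0.38 (SE 0.24, limma adjusted p = 0.629), the smallest p among the members. It was -0.85 (SE 0.27, adjusted p = 0.527) on slide 1 and 0.15 (SE 0.30, adjusted p = 0.938) on slide 2, and the test of that change between slides gave 0.997 (SE 0.42, adjusted p = 0.832). Wsh replicates 6 and 7, high in caseins, were highest within Wsh at 6.02 and 5.90. The genes most like it were Eef2k (r = 0.882), the kinase of elongation factor 2, Slc7a1 (0.880), an arginine and lysine transporter, and Sfxn3 (0.849).

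Glycam1 split the tumours into 2 sets that did not follow the groups. By its representing probe (chr15:103393187-103393246), 8 arrays lay between 1.70 and 4.96 and 7 between -3.11 and -1.01, with a gap of 2.72 between them. The higher set held B6 replicates 1, 2, 4 and 7 (3.47, 4.23, 2.45 and 3.83) and Wsh replicates 1, 2, 6 and 7 (4.96, 1.70, 4.65 and 3.85). The lower set held B6 replicates 3, 5, 6 and 8 (-2.74, -1.01, -3.11 and -3.01) and Wsh replicates 3, 4 and 5 (-2.78, -2.93 and -2.65). Both groups therefore fell on either side, and the difference was 0.46 (SE 1.66, limma adjusted p = 0.959). A second probe (chr15:103393339-103393398) gave the same order of sets, with r = 0.989, and was well above background on 10 arrays.

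The genes most like Glycam1 over the 15 arrays included Ms4a1 (r = 0.980), the B cell antigen CD20, and Cr2 (0.974), the complement receptor of B cells and follicular dendritic cells. In total 96 genes had r above 0.9. Ms4a1 lay between -0.63 and 2.06 in the higher Glycam1 set and between -7.85 and -3.69 in the lower set. Cr2 lay between -0.61 and 2.18 against -5.46 and -2.48, so neither overlapped between the sets, which their choice by likeness to Glycam1 already favours. The B cell gene Cd79a, of the B and plasma cell list, did overlap, at -5.50 to -2.82 against -7.83 to -3.41. Within the sets, r with Ms4a1 was 0.701 (n = 8) and 0.957 (n = 7), the latter including B6 replicate 5, which lies apart from the other 6 low arrays in both genes. Ms4a1, Cr2 and Cd79a were well above background on just 9, 11 and 7 of the 15 arrays. Ms4a1 on those 6 low arrays is at background, so the value of 0.957 rests on B6 replicate 5. The 8 measured B and plasma cell markers had a list mean of -1.63 to 0.84 in the higher set and of -5.26 to -3.98 in the lower set.

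Because the arrays fall into these 2 sets, the high endothelial venule and lymph node stroma markers are read pooled and within each set. Pooled over the sets, 5 of the 7 measured markers passed an adjusted permutation p of 0.05. Their Pearson r was 0.789 for Fut7, 0.700 for Ccl21a, 0.789 for Ccl19, 0.854 for Cxcl13 and 0.974 for Cr2. These pooled values include the step between the sets. Within the higher set (n = 8) r ran from 0.368 for Ccl19 to 0.644 for Chst4, and exact permutation p over the 7 measured markers was 0.0826 or more. Within the lower set (n = 7) r ran from -0.451 for Ccl21a to 0.930 for Cr2, with exact permutation p of 0.129 or more. The sets are cut from the Glycam1 values themselves, so each covers a narrower range of Glycam1 with few arrays. A relation that did not pass within a set is therefore not shown to be absent. The lymphoid chemokine gene Cxcl13 lay between -2.58 and 1.42 in the higher set and between -6.99 and -2.23 in the lower set. Fut7, a fucosyltransferase, lay from -3.31 upwards against -4.89 to -2.93, and Chst4, the venule sulfotransferase, between -6.31 and -4.70 against -6.14 and -4.60. Chst4 was well above background on just 8 of the 15 arrays. Madcam1, also of this list, was not tested because it stood well above background on 0 of 15 arrays. The part of lymphoid content in the Glycam1 values was not tested.

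Csn2 overlapped between the Glycam1 sets, at -2.97 to 5.78 in the higher and -7.60 to -0.63 in the lower. Pooled over both sets, r of Glycam1 with Csn2 was 0.685 (permutation p = 0.00548, adjusted over the 9 relations 0.0247), and rho was 0.582 (adjusted 0.115). Without Wsh replicates 6 and 7, r was 0.599. It was 0.798 within B6 (n = 8) and 0.625 within Wsh (n = 7), and 0.375 on slide 1 (n = 8) and 0.913 on slide 2 (n = 7). The pooled value includes the step between the sets, and within them r was 0.208 (n = 8) and -0.418 (n = 7), each over a narrower range of Glycam1. The 3 arrays with the highest Csn2 lay in the higher Glycam1 set, but Wsh replicate 1, the highest in Glycam1 at 4.96, had Csn2 at -2.97.

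**Figure D4:**
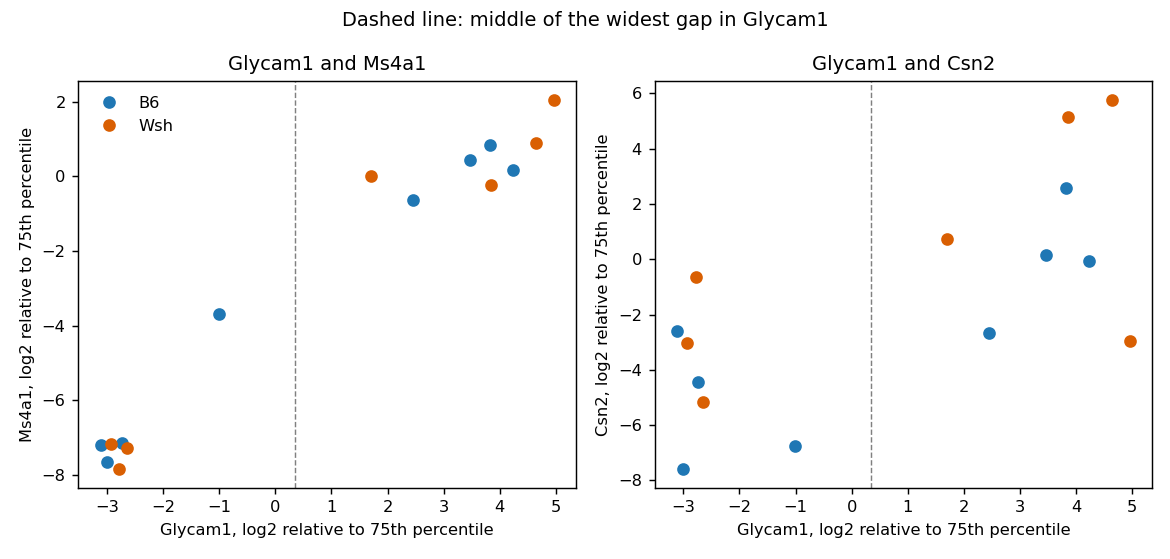
Log2 signals of Glycam1 (horizontal) against Ms4a1 (left) and Csn2 (right) for 8 B6 and 7 Wsh arrays, with a dashed line in the widest Glycam1 gap. Both groups occur on both sides, Ms4a1, chosen for its likeness, is separated at the same gap, and Csn2 overlaps across it.

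Of the secretion genes, Btn1a1, the butyrophilin of the milk fat globule membrane, has 3 kept probes on chromosome 13 that did not give 1 pattern. The representing probe (chr13:23549437-23549496) ran from 3.11 over a median of 3.39 to 4.19 in B6 and from 3.13 over 3.60 to 3.72 in Wsh, with a difference of 0.07 (SE 0.15, limma adjusted p = 0.927). It holds a run of 22 bases of alternating G and T, shown in capitals in the stretch of its bases 28 to 57.
Btn1a1 representing probe, bases 28 to 57: cagGTGTGTGTGTGTGTGTGTGTGTcttcc
The genes most like it were Atxn7 (r = 0.996), Mtfr2 (0.995) and Tmem239 (0.992), whose representing probes hold such runs of 26, 27 and 31 bases. Of the 74 genes with r above 0.9 to this probe, 70 (94.6%) have a probe with a run of at least 10 bases, whereas 200 of all 22342 genes tested (0.895%) do. What this overlap in sequence does to the signal of the probe was not tested, so the 3 Btn1a1 probes are given side by side.

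The other 2 Btn1a1 probes followed it weakly (r = 0.26 and 0.51 over 15 arrays). At chr13:23549561-23549620, the B6 arrays lay between -3.25 and -0.88 and the Wsh arrays between -2.15 and -0.53. B6 replicate 8 was lowest and Wsh replicate 6 highest, and Wsh replicates 3, 5, 6 and 7 and B6 replicate 6 lay at -0.99 or above. Its difference was 0.71 (SE 0.33, limma adjusted p = 0.438 over all kept probes). It was the only 1 of the 17 kept member probes whose unadjusted p was under 0.05. At chr13:23555734-23555793, B6 lay between -5.24 and -3.15 and Wsh between -4.70 and -3.01, with a difference of 0.37 (SE 0.34, adjusted p = 0.731). It was not well above background on 1 array.

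**Figure D5:**
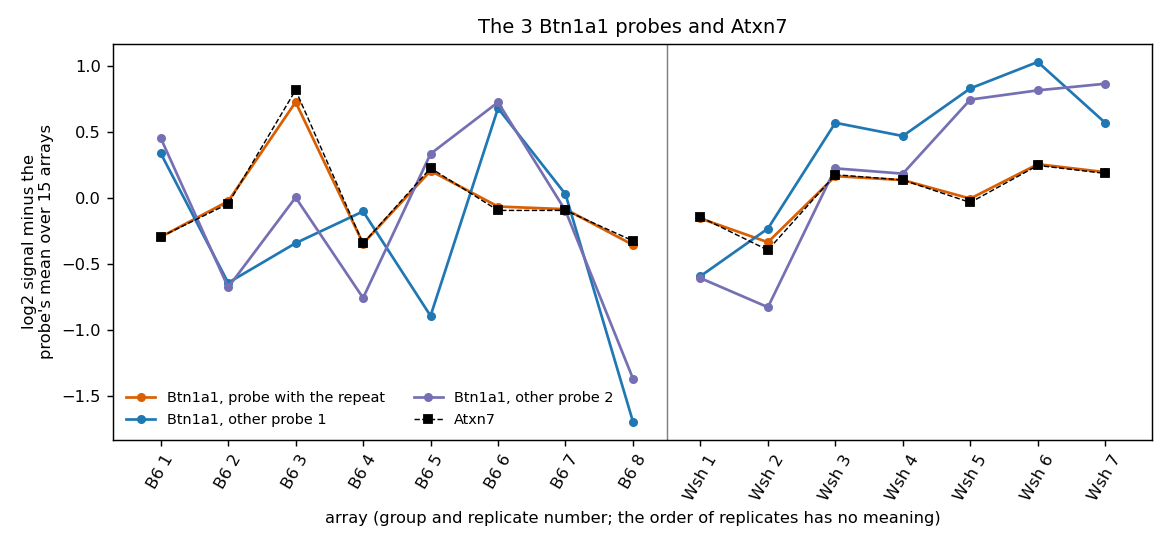
Log2 signal minus the probe's own mean over 15 arrays (vertical axis) for the 3 kept Btn1a1 probes and for Atxn7 on each B6 and Wsh array. The probe with the GT run follows Atxn7 on every array, while the other 2 probes fall together to their lowest values on B6 8.

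Xdh, xanthine dehydrogenase, which binds butyrophilin at the apical membrane of secreting cells, had an SD of 0.39 over the 15 arrays, at the 65.8th percentile of all genes. By the representing probe (chr17:74233511-74233570) it ran from 2.06 over a median of 2.61 to 3.64 in B6 and from 1.98 over 2.68 to 2.84 in Wsh. B6 replicate 8 was highest at 3.64, and all other arrays lay at or below 2.84. The difference was -0.06 (SE 0.20, adjusted p = 0.952 in limma). A second kept probe followed it (r = 0.833), was also highest on B6 replicate 8 at 0.52, and differed by 0.23 (SE 0.23, adjusted p = 0.768). A further Xdh probe stood well above background on 0 of 15 arrays. 1810019D21Rik (r = 0.882), Unkl (0.853) and Cpa5 (0.835) were most like Xdh.

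B6 replicate 8 held an unlike mix of the members. It is also the array with the highest 75th percentile, 6406 signal units, by which its values are scaled. The part of that in its readings was not tested. By the representing probes this array was lowest of all 15 arrays in Csn2, Csn1s2a and Csn3, and highest in Wap and Xdh. The low Csn3 reading is that of 1 probe: the other 2 kept Csn3 probes read 5.27, inside their range, and 3.66, the highest of all arrays. The 2 Btn1a1 probes without the GT run were both lowest there. Its Csn1s1 value of 1.88 was the highest among B6. Over the 45 pairs of members, r ran from -0.62 for Csn3 with Xdh to 0.91 for Csn2 with Csn1s2a. Without B6 replicate 8, which was taken out after seeing the data, the first was -0.08 and the second 0.90. Wap went with Csn1s1 (r = 0.69, and 0.79 without B6 replicate 8) and with Xdh (0.60, and 0.31 without it), and Lalba with Csn1s2b (0.61, and 0.68 without it). The value for Csn2 with Csn3 turned from 0.17 to -0.32. These values are a description over 15 arrays that share array scaling.

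Slide 2 against slide 1, with the group as a term, gave 0 of 10 members past adjusted p 0.05 in limma, beside 0.0313% of all genes. An unadjusted p under 0.05 was found for 2 of 10, beside 8.48% of all genes. These were Csn1s2b, higher on slide 2 by 0.56 (SE 0.21, limma adjusted p = 0.506), and Wap, higher by 1.03 (SE 0.41, adjusted p = 0.534). Slide 1 alone had a Csn2 difference between the groups of 0.28 (SE 1.24) and slide 2 alone one of 5.50 (SE 3.43), with adjusted p of 0.956 and 0.848. Glycam1 differed by -1.61 (SE 2.12) on slide 1 and by 2.77 (SE 2.31) on slide 2. The test of a different group difference between the slides passed for 0 of 10 members, with adjusted p of 0.832 or more. The share of all genes passing that test was not counted, so this 0 is not set against a background.

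No gene of the wider milk programme passed the threshold. Of 74 genes in 4 lists on other milk proteins, milk fat, lactose and transport, and prolactin signalling, 0 passed adjusted p 0.05 in limma and 9 (12.2%) had an unadjusted p under 0.05, beside 10.4% of all genes, with a median difference of -0.03. Among the 22 milk fat genes the lowest adjusted p was that of Fabp3, a fatty acid binding protein of secreting mammary cells and of muscle, at 2.25 (SE 0.47, adjusted p = 0.0582). Fabp3 lay between -4.33 and -3.03 in B6 and between -3.08 and 0.40 in Wsh, and its 3 highest arrays, Wsh replicates 4, 3 and 5, are among the 5 with muscle markers, followed by Wsh replicate 7, without them, at -1.53. It passed with Wsh replicate 2 left out (adjusted p = 0.0412) and with Wsh replicate 6 left out (0.0333), and without the 5 muscle arrays it was 1.34 (SE 0.32, adjusted p = 0.231). Srebf1, a regulator of lipid synthesis, had a difference of -0.35 (SE 0.14), Vldlr of -0.27 (SE 0.16) and Cidea, a lipid droplet protein, of 0.93 (SE 0.67), with adjusted p of 0.371, 0.620 and 0.688.

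Among the 14 other milk proteins, Folr1, the folate receptor, had a difference of -0.44 (SE 0.16, limma adjusted p = 0.334). Spp1, osteopontin, stood at 0.66 (SE 0.34, adjusted p = 0.541), Lao1, the milk amino acid oxidase, at 0.85 (SE 0.66) and Mfge8, the lactadherin of the fat globule, at 0.20 (SE 0.16). Of the 16 genes of lactose synthesis and transport, Slc7a4 was nearest to the threshold at -0.52 (SE 0.12, adjusted p = 0.108). Slc6a14, an amino acid transporter, stood at -0.70 (SE 0.26), Slc5a6, a vitamin transporter, at -0.59 (SE 0.30) and Aqp5, a water channel, at -0.30 (SE 0.16), with adjusted p of 0.339 to 0.532.

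In the list of 22 prolactin signalling and alveolar genes, 16 (72.7%) had a difference below 0, beside 51.8% of all genes, with a median of -0.14. None passed (0 of 22), and 4 (18.2%) had an unadjusted limma p under 0.05, beside 10.4% of all genes. The prolactin receptor gene Prlr stood at 3.22 ± 0.28 (SD, n = 8) in the B6 tumours and at 2.78 ± 0.25 (SD, n = 7) in the Wsh tumours, a difference of -0.44 (SE 0.14, limma adjusted p = 0.233). Pgr, the progesterone receptor, stood at -0.96 (SE 0.33, adjusted p = 0.306), Jak2 at -0.21 (SE 0.09, adjusted p = 0.413) and Wnt4, a progesterone target, at -0.94 (SE 0.41, adjusted p = 0.439). Stat5a was at -0.31 (SE 0.18) and Elf5 at 0.02 (SE 0.15). Prlr and Pgr are also in the list of 8 hormone-sensing luminal markers, all 8 of which had a difference below 0 (median -0.47), beside 51.8% of all genes. Of these 8, 0 passed in limma and 3 had an unadjusted p under 0.05, where 0.336% and 10.4% of all genes did. The general luminal epithelial markers also lay mostly below 0 (7 of 8, median -0.12), with 0 unadjusted limma p under 0.05. A lean below 0 was therefore not particular to the prolactin and hormone-sensing lists.

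The 5 caseins lie in 1 cluster on chromosome 5, their probes spanning 257.9 kb in mm9, at 12.05 Mb from the Kit probe on the chromosome that carries the W-sh inversion. Within 1 Mb of the casein probes, 17 other genes were tested, and 0 passed adjusted p 0.05 in limma, where 0.336% of all genes did. With so small a share, 0 of 17 says little about the region. The median difference was -0.14, beside -0.01 over all genes. An unadjusted p under 0.05 was found for 1 of the 17 (5.88%), beside 10.4% of all genes. That gene was Amtn, a tooth enamel protein gene, at -1.65 (SE 0.52, adjusted p = 0.248). The next were Gm7337 at 0.22 (SE 0.11, adjusted p = 0.532) and Mob1b at -0.33 (SE 0.17, adjusted p = 0.546).

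Other cell types were read on the arrays that lead in caseins. Wsh replicates 6 and 7 had list means of 3.93 and 3.62 for luminal epithelial markers, inside the range of the other arrays. They ranked 13 and 10 of 15 in luminal progenitor markers. That progenitor list includes Kit, which was lower on every Wsh array than on any B6 array. These ranks therefore include the group difference in Kit. The skeletal muscle means of Wsh replicates 6 and 7 were -4.82 and -4.73, among the 3 lowest, and their basal means of 1.76 and 1.87 ranked 13 and 12. For adipocyte markers they stood at 3.31 and 1.49, and for salivary gland markers at -1.81 and -0.55. In the 4 lists of the milk programme (other milk proteins, milk fat, lactose and transport, prolactin signalling), Wsh replicate 6 ranked 6, 5, 2 and 4 of 15 and Wsh replicate 7 ranked 1, 10, 11 and 10. B6 replicate 7 was highest of all arrays in milk fat genes (3.49), adipocyte markers (4.58) and salivary gland markers (0.50), and lowest of all in other milk proteins (2.54). The part of these contents in the casein values was not tested.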

How the data were processed

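Cy3-labelled cRNA from tumour RNA was read on 1-colour Agilent arrays, per the labels' protocols. The processed intensity of each spot comes from Agilent Feature Extraction 10.7.3.1, which subtracted background and detrended it without scaling arrays to each other, per the file headers. The submitters' processing notes also list limma. The authors deposited log2 values of the same arrays, with column medians of 8.605 to 8.608; their normalization is not given in the sources used here, and they served as an alternative.

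From 62976 spots, 59305 were not controls. Outlier-flagged spots were left out and spots of a probe averaged. Main values were log2 processed intensity minus the array's 75th percentile. Probes detected well above background on 7 or more of the 15 arrays were kept (34346), and the kept probe of highest mean stood for its gene. The comparisons used lmFit and eBayes (limma 3.58.1, R 4.3.3), two-sided, adjusted by Benjamini-Hochberg over 22342 genes, threshold 0.05. Correlations used 100000 permutations, or all orders within groups, slides and sets. Probe coordinates are those of the files (mm9), without exon annotation. Promoters are RefSeq's (GRCm38.p6). Named genes were the members, Kit, up to 4 genes of each list and 3 casein-region genes by absolute moderated t, and the 3 genes most like each member (5 for Csn2), of which 1 for Glycam1 is not reported here. Members and lists were chosen with earlier results of these data known. Same-numbered arrays did not pair (correlations of deviations -0.24 to 0.21). The fits were tested on simulated data. The alternatives were other background, scaling, filter, probe and batch choices, and arrays left out.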

Additional observations from a re-analysis of the deposited data

Results flagged for a closer look

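Within each group, the highest and lowest array of every member were set against the others by the gap to the nearest array as a share of the group's range (Dixon's test at its 95% value), which chance passes in about 5% of groups. Of 20 groups tested, 2 passed, both for B6 replicate 8, the array with the highest 75th percentile. Csn3 was lowest there by its representing probe, with a gap share of 0.578, while its other 2 kept probes read 5.27, inside their range, and 3.66, the highest of all arrays. Xdh was highest there, with a gap share of 0.591. Leaving this array out gave a difference of -0.06 for Csn3 and 0.08 for Xdh.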

How the results depend on the processing

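Across 15 other settings, 0 of 10 members passed the threshold in 14, and 1 (Csn1s1) passed, with 1 of 10 not overlapping, without the 5 arrays with skeletal muscle transcripts. With 1 array left out, 0 members passed each time. Of the pathway genes, 1 (Fabp3) passed with probes well above background on all 15 arrays, with array weights, and in 2 of the 15 settings that left out an array (range 0 to 1). The slide comparison and the casein region gave 0 in every setting run. Of 149 member differences in other settings 24 changed sign, none of them past the threshold. With scaling to the array median these were Csn3 (-0.0672), Wap (-0.0193) and Btn1a1 (-0.0302), and the median of all genes was -0.11. With the mean of the kept probes, Csn3 was -0.14 and Xdh 0.0841. On slide 1 alone, Csn3 was -0.11, Wap -0.12, Glycam1 -1.61, Btn1a1 -0.0600 and Xdh 0.18. On slide 2 alone, Csn1s2b was 0.26 and Lalba 0.15. With a replicate block, 0 members passed and 15 of all genes did, and Csn3 was -0.0558, Glycam1 -0.0448 and Xdh 0.0818. With array weights, Csn3 was -0.00487, Wap -0.0348 and Glycam1 -1.11. Without Wsh replicates 6 and 7, Csn1s2a was -0.0352, Wap -0.39, Glycam1 -0.85 and Btn1a1 -0.00739. Without the muscle arrays, Csn3 was -0.00479 and Xdh 0.15. Leaving out 1 array gave -0.0558 to 0.0712 for Csn3, -0.17 to 0.37 for Wap, -0.21 to 1.11 for Glycam1 and -0.14 to 0.0818 for Xdh. Among correlations over 15 arrays, those that changed sign were Csn2 with Csn3 (-0.11), Btn1a1 (-0.0933), Prlr (-0.12), Stat5a (-0.00210), Stat5b (-0.11) and Elf5 (-0.13) under median scaling, Csn2 with Xdh (0.00566) in the deposited values, and Glycam1 with Chst4 (-0.20 with normexp, -0.19 with quantile normalization, -0.11 with median scaling and -0.26 in the deposited values). Csn2 with Csn1s1 passed with normexp (r = 0.663, adjusted permutation p = 0.0232) and in the deposited values (adjusted 0.0229). Over all genes 75 passed, against 25 without a filter, 4 and 1 on slides 1 and 2 alone, 23 without Wsh replicates 6 and 7, 24 without the muscle arrays, 170 with array weights and 25 to 76 with an array left out. For these changes the cause was not tested. Probes near background, such as Csn2 on 3 arrays, have only a bound there, and 8 and 7 arrays limit the precision.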
